A study of Mus musculus with 2 samples.

Results

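The genes described here are 7 of the 22337 gene symbols measured, namely the CXC chemokines *Cxcl12*, *Cxcl14*, *Cxcl1*, *Cxcl2* and *Cxcl13* and the receptors *Cxcr4* and *Ackr3*, chosen by symbol as a list. scRNA-Seq was done on cells isolated over a Lympholyte-M gradient from 6 heart allografts at postoperative day (POD) 14. The hearts came from Bm12 donors, whose altered MHC class II molecule is recognized by CD4+ T cells of the C57BL/6 (B6) recipients, and this mismatch was shared by all grafts. Hearts 1, 2 and 3 came from donors with intact *Il33* (IL-33+ grafts, labelled BM12 WT), and hearts 4, 5 and 6 came from *Il33*-/- Bm12 donors (IL-33- grafts, labelled BM12 IL33 KO), so that graft cells lacked the cytokine while the recipients' own cells did not. Each heart carried a hashtag, and all hearts were then pooled. The mice were matched by age, and the age itself is not given in the sources used here.

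The deposited matrix held 4441 cells, assigned by the authors to 14 types. The hearts held between 230 and 1666 cells and between 908135 and 7012949 unique molecular identifiers (UMIs, each a captured transcript), with a median of 3700 UMIs per cell. *Il33* in the annotated fibroblasts was at 24.3, 0 and 50.7 CPM (UMIs of a gene scaled to a common total per cell) in hearts 1, 2 and 3 and at 32.6, 73.8 and 16.1 CPM in hearts 4, 5 and 6, so that this transcript did not check the labels and the groups are named by them. The annotated fibroblasts numbered 34, 6 and 270 in hearts 1, 2 and 3 and 31, 4 and 30 in hearts 4, 5 and 6. Heart 3 therefore gave 270 of the 375 fibroblasts, and values of hearts 2 and 5 rest on 6 and 4 cells.

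CXC chemokines are small secreted proteins that steer leukocytes through G protein-coupled receptors. CXCL12 is made by stromal cells and retains or attracts leukocytes that carry CXCR4, while ACKR3, an atypical receptor, binds and internalizes CXCL12 without the usual G protein signal. CXCL1 and CXCL2 attract neutrophils through CXCR2, CXCL13 attracts B cells through CXCR5, and CXCL14 is a chemokine of epithelium and fibroblasts. In the heart, fibroblasts, endothelial cells and mural cells (pericytes and smooth muscle) form the stroma in which such signals are produced after injury.

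In the GENCODE vM21 annotation of GRCm38 (mm10), *Cxcl1* lies on chromosome 5 from 90891241 to 90893115 and *Cxcl2* on the same strand from 90903871 to 90905938, with 10755 bases between them. *Cxcl13* is on the same chromosome from 95956951 to 95961068. *Cxcl12* lies on chromosome 6 from 117168535 to 117181367 and *Cxcl14* on chromosome 13 from 56288643 to 56296551. Both receptors are on chromosome 1, *Ackr3* from 90203980 to 90216751 and *Cxcr4* from 128588199 to 128592293. The promoters of the neighbours *Cxcl1* and *Cxcl2* are shown because these genes share a stretch of promoter sequence and yet were read mainly in different cells. The stretches are RefSeq sequence of GRCm38.p6, plus strand, from 230 to 31 bases before the RefSeq start, at chr5:90891015-90891214 and chr5:90903669-90903868, with capitals at the longest run of bases found in both.
Cxcl1: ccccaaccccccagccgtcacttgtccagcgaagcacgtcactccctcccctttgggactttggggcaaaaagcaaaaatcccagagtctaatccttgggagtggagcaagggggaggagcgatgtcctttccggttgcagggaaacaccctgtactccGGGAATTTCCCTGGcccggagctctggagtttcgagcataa
Cxcl2: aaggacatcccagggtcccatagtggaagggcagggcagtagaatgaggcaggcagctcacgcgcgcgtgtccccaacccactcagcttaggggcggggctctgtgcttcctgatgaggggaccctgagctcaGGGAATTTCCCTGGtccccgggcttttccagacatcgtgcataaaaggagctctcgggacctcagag
The shared run GGGAATTTCCCTGG is 14 bases long and starts 71 bases before the start in *Cxcl1* and 97 bases before it in *Cxcl2*. Searched on both strands over 250 bases before the start, it was in 2 of 32851 promoters, these 2. That it was in both of them follows from how the run was chosen. Its first part has the form of a site for NF-kB, a transcription factor of inflammation. TATAAA, searched in the same way, was in 12.4% of promoters, among them those of *Cxcl13*, *Cxcr4* and *Ackr3*, and ACGTG was in 16.6%, among them that of *Cxcl1*. A match is a string of letters and does not show that a factor was bound.

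*Cxcl12*, *Cxcl14*, *Cxcl1* and *Ackr3* were read mostly in the annotated fibroblasts. Of the UMIs of all cells, fibroblasts held 566 of 646 for *Cxcl12* (87.6%), 308 of 389 for *Cxcl14* (79.2%), 6030 of 7246 for *Cxcl1* (83.2%) and 748 of 903 for *Ackr3* (82.8%). They held 5.99% of the UMIs of *Cxcl2* and 2.11% of those of *Cxcr4*. Because the types were assigned from the same expression values, levels across types are a description without a test. The values of each heart in each type are shown in the plot of 6 genes by type.

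**Figure D1:**
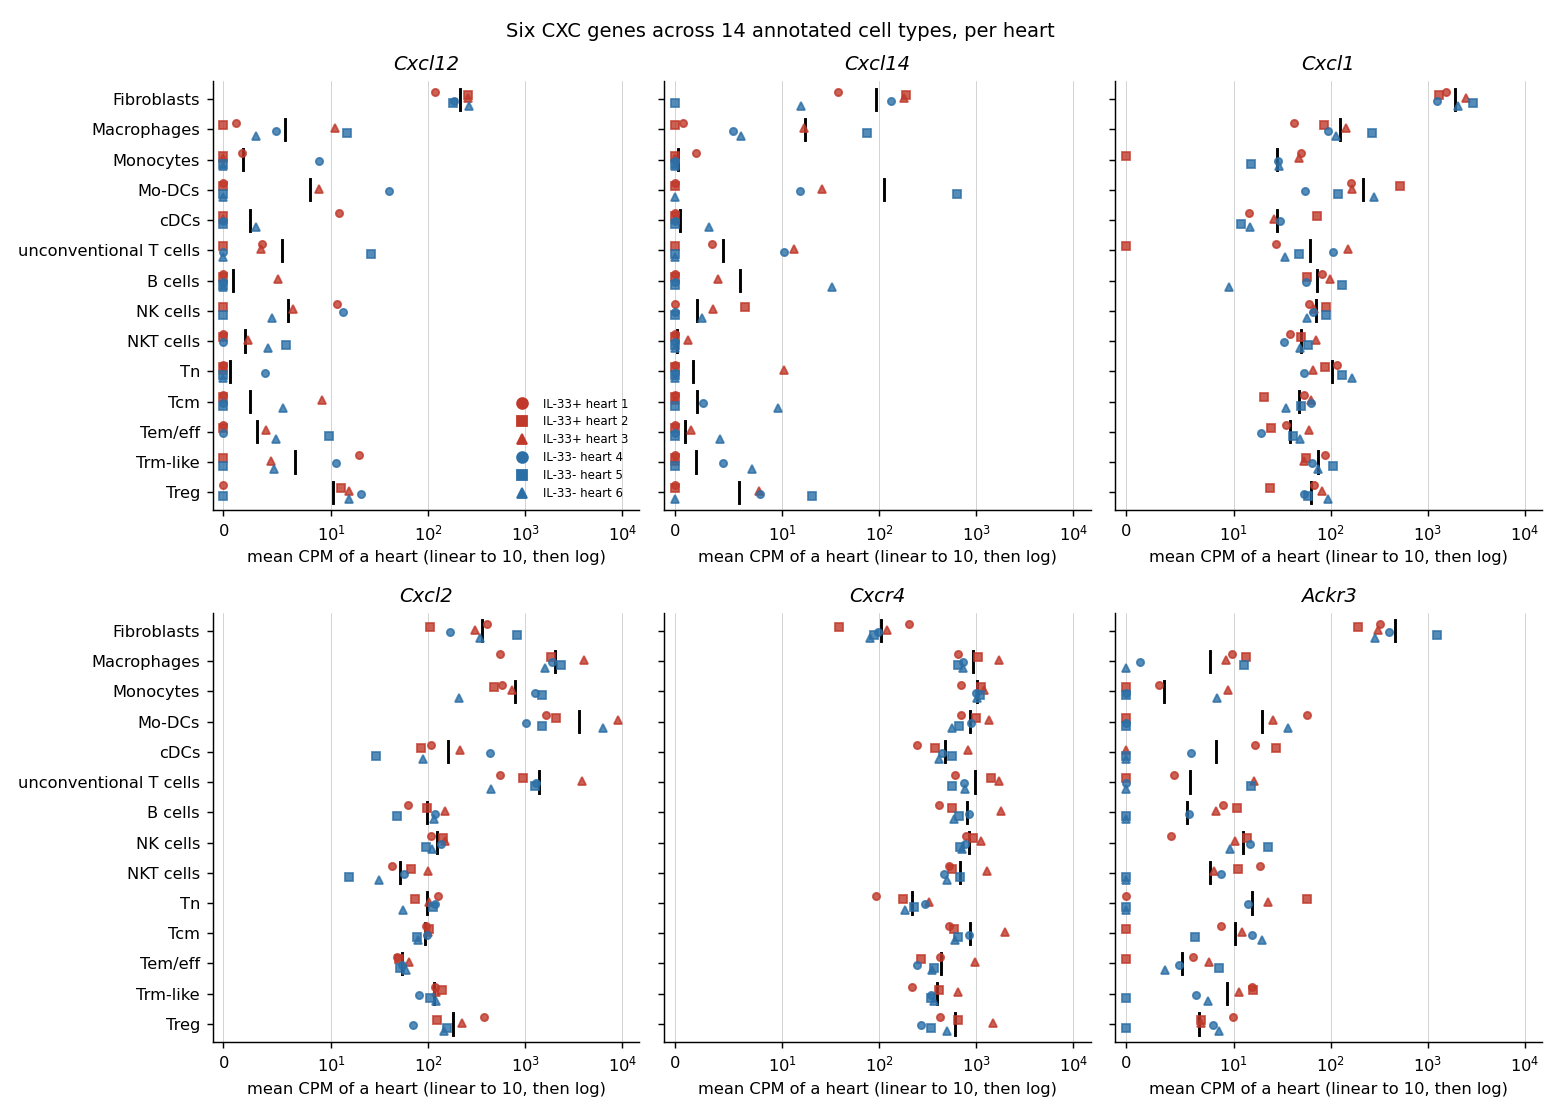
Mean CPM of each heart (points, red for IL-33+ and blue for IL-33- grafts) and the mean over 6 hearts (black bars) for 6 genes in 14 annotated cell types, on an axis that is linear to 10 CPM and logarithmic above. *Cxcl12*, *Cxcl1* and *Ackr3* stood apart in fibroblasts in all 6 hearts, *Cxcl2* was highest in myeloid types, and *Cxcr4* was lowest in fibroblasts.

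*Cxcl12*, the stromal ligand of CXCR4, was at 117, 260.0 and 256 CPM in fibroblasts of IL-33+ hearts 1, 2 and 3. In IL-33- hearts 4, 5 and 6 it was at 185, 179 and 265 CPM. The groups overlapped fully, with heart 1 the lowest and heart 6 the highest. The mean over hearts was 210.3 ± 60.0 CPM (SD, n = 6), and the lowest heart was above every heart of every other type, of which the highest was 39.1 CPM in Mo-DCs (monocyte-derived dendritic cells) of heart 4. A *Cxcl12* UMI was found in 168 of 375 fibroblasts (44.8%, exact 95% interval 39.7% to 49.99%, which covers counting error only). It was found in 1.62% of the 3025 cells of the 8 lymphocyte types, which are not known as sources of it, at a median depth of 3180 UMIs against 5789 in fibroblasts. The order below fibroblasts was not resolved, since Tregs, the next type by mean (10.5 ± 8.55 CPM), held 8 *Cxcl12* UMIs.

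*Cxcl14* was at 37.5, 186 and 180 CPM in fibroblasts of IL-33+ hearts 1, 2 and 3 and at 133, 0 and 15.5 CPM in those of IL-33- hearts 4, 5 and 6. Hearts 2, 3 and 4 were high and the groups overlapped, because heart 4 was above heart 1. The gene was read in few cells. The positive fibroblasts numbered 3, 1 and 41 in hearts 1, 2 and 3 and 1, 0 and 2 in hearts 4, 5 and 6, so that the value of heart 4 came from 24 UMIs of a single cell and that of heart 2 from 6 UMIs of a single cell. In all, 48 of 375 fibroblasts had a UMI (12.8%, exact interval 9.59% to 16.6%), against 0.694% of lymphocytes. By the mean over hearts, Mo-DCs had more *Cxcl14* (111 ± 253 CPM) than fibroblasts (92.0 ± 84.3 CPM), which rests on heart 5, where 1 of 7 Mo-DCs held 10 UMIs. With UMIs summed over all cells the order turned, with 129 CPM in fibroblasts and 38.6 CPM in Mo-DCs.

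Outside fibroblasts, *Cxcl14* UMIs were found in 13 of 429 macrophages and 4 of 204 Mo-DCs. The highest macrophages held 9 and 7 *Cxcl14* UMIs, together with UMIs of 8 and 7 of 8 fibroblast markers and 59 and 50 UMIs of *Dcn*, which encodes the matrix proteoglycan decorin. These macrophages also held 4 of 8 macrophage and monocyte markers each. The highest Mo-DCs, with 10 and 7 *Cxcl14* UMIs, held 1 and 2 of the 8 fibroblast markers and no *Dcn* UMI. They held 0 and 1 of the 8 macrophage and monocyte markers, so these markers did not show them to be myeloid cells. The Mo-DCs with 1 *Cxcl14* UMI held 3 of these markers each. Whether these droplets held more than a single cell was not tested.

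*Cxcl1*, a ligand of the neutrophil receptor CXCR2, was at 1558, 1304 and 2459 CPM in fibroblasts of hearts 1, 2 and 3 and at 1240, 2947 and 2079 CPM in those of hearts 4, 5 and 6. The groups overlapped, with the highest value in heart 5. The mean was 1931 ± 684 CPM (SD, n = 6), and the lowest heart was above every heart of every other type, of which the highest was 515 CPM in the 4 Mo-DCs of heart 2. A *Cxcl1* UMI was found in 241 of 375 fibroblasts (64.3%, exact interval 59.2% to 69.1%). It was also found in 18.5% of lymphocytes, where *Dcn* was found in 33.8% of cells and *Col1a1*, a fibrillar collagen, in 20.5%. With UMIs pooled over hearts, *Cxcl1* gave 0.895 UMIs per *Col1a1* UMI in lymphocytes and 0.859 in fibroblasts. It gave 0.481 per *Dcn* UMI in lymphocytes against 0.201 in fibroblasts. By heart, the ratio to *Col1a1* ranged from 0.66 to 1.5 in lymphocytes and from 0.28 to 2.25 in fibroblasts. The ratio to *Dcn* ranged from 0.38 to 0.61 and from 0.10 to 0.23. In macrophages the pooled *Cxcl1* ratios were 2.70 UMIs per *Col1a1* UMI and 0.639 per *Dcn* UMI, and in Mo-DCs 1.17 and 0.862. Fibroblast transcripts were read in all types of the pooled library. Whether *Cxcl1* outside fibroblasts was expressed in the cells where it was read was not tested.

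*Cxcl2*, which encodes another CXCR2 ligand, was a myeloid transcript in these cells. Macrophages, monocytes, Mo-DCs and the cells annotated unconventional T cells made up 870 cells and held 10740 of its 12857 UMIs (83.5%). It was at 1647, 2090 and 9064 CPM in Mo-DCs of hearts 1, 2 and 3 and at 1027, 1479 and 6306 CPM in those of hearts 4, 5 and 6. Hearts 3 and 6, from different groups, were the highest. By mean over hearts the order was Mo-DCs (3602 ± 3298 CPM), macrophages (2033 ± 1132 CPM), unconventional T cells (1391 ± 1257 CPM), monocytes (791 ± 486 CPM) and fibroblasts (357 ± 255 CPM). In each step of this order the ranges of the hearts overlapped. Within hearts, Mo-DCs were above macrophages in 4 of 6, and macrophages above unconventional T cells in 6 of 6. Unconventional T cells were above monocytes in 4 of 6 hearts, and monocytes above fibroblasts in 5 of 6. The unconventional T cells carried macrophage transcripts, with *C1qa* at 702 CPM beside *Cd3e* at 150 CPM. *Cxcl2* was also read in lymphocytes, at 1094 UMIs in the 3025 cells, or 0.833 per *Dcn* UMI there against 0.0256 in fibroblasts and 10.2 in macrophages.

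The annotated Mo-DCs were not of a single kind. *S100a8*, *S100a9* and *Retnlg*, which mark neutrophils, averaged 7118, 5855 and 1246 CPM in them. The 42 Mo-DCs with UMIs of at least 4 of 7 neutrophil markers, a division chosen after the values were seen, held 1296 of the 2626 *Cxcl2* UMIs of Mo-DCs and averaged 16893 CPM over cells, against 3162 CPM in the other 162. Of these 42 cells, 25 came from heart 3. In heart 3 they were at 26268 CPM against 4063 CPM in its other Mo-DCs, whereas the 11 such cells of heart 4 were at 975 CPM against 1061 CPM. *Cxcr2*, the receptor of CXCL1 and CXCL2, was not among the 7 markers and was found in 11 of the 42 cells and 7 of the other 162. Over all Mo-DCs *Cxcr2* was at 87.2, 0 and 63.2 CPM in hearts 1, 2 and 3 and at 242, 150 and 0 CPM in hearts 4, 5 and 6, from 43 UMIs, and its groups overlapped.

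*Cxcl13*, the B cell attractant, was barely read. It had 8 UMIs in 8 cells, 2 of them in fibroblasts of heart 3, and passed the low-count filter in no type. No *Cxcl13* UMI was found in 429 macrophages, which allows a share of cells with a UMI of up to 0.699%, nor in 286 B cells, which allows up to 1.05%. These limits cover detection, since a cell that expresses the gene may give no UMI. Its receptor *Cxcr5* was at 42.7 ± 40.1 CPM in B cells (SD, n = 6), from 41 UMIs.

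*Ackr3*, the scavenging receptor of CXCL12, shared the fibroblast pattern of its ligand. It was at 320.4, 191 and 307 CPM in fibroblasts of hearts 1, 2 and 3 and at 403, 1263 and 288 CPM in those of hearts 4, 5 and 6. The groups overlapped, since heart 6 was below hearts 1 and 3. The value of heart 5 came from 38 UMIs in 1 of its 4 fibroblasts. The mean was 462 ± 398 CPM, and the lowest heart was above every heart of every other type, of which the highest was 57.1 CPM in Mo-DCs. An *Ackr3* UMI was found in 180 of 375 fibroblasts (48.0%, exact interval 42.8% to 53.2%) and in 3.07% of lymphocytes.

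*Cxcr4*, the signaling receptor of CXCL12, was read in leukocytes of every type and least in fibroblasts. It was at 1017 ± 181 CPM in monocytes (SD, n = 6), 829 ± 167 CPM in NK cells, 606 ± 442 CPM in Tregs, 216 ± 85.2 CPM in naive T cells (Tn) and 103 ± 54.0 CPM in fibroblasts. The ranges of neighbours in this order overlapped, while within hearts naive T cells were above fibroblasts in 5 of 6. A *Cxcr4* UMI was found in 151 of 154 monocytes (98.1%, exact interval 94.4% to 99.6%) and in 108 of 375 fibroblasts (28.8%, exact interval 24.3% to 33.7%). After each cell was thinned to 1500 UMIs these shares were 68.8% and 12.5%.

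The annotated fibroblasts held at least 2 kinds of cell. By summed UMIs of 8 fibroblast markers (such as *Pdgfra* and *Dcn*) against 8 endothelial markers (such as *Pecam1* and *Cdh5*), 313 cells were fibroblast-marked and 62 endothelial-marked. *Dcn* averaged 15332 CPM in the former and 112 CPM in the latter, and *Cdh5* 9.38 and 775 CPM. Of the 62 cells, 17 held more UMIs of pericyte and smooth muscle markers than of either other list and are called mural-marked, a division added after the data were seen. These 17 cells also held endothelial transcripts, with *Pecam1* in 14 and *Cdh5* in 10 of them. *Cdh5* averaged 456 CPM in them, against 896 CPM in the 45 endothelial-marked cells left. Whether the 17 were single cells of a mural kind was not tested. Cardiomyocyte transcripts were near 0 in the annotated fibroblasts, with *Myh6* at 0.727 CPM.

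*Cxcl14* was found in 48 of 313 fibroblast-marked cells (15.3%) and in 0 of 62 endothelial-marked cells. The latter allows a share of cells with a UMI of up to 4.84% (3 divided by 62) and sets no limit on cells that express it. *Cxcl12* was found in both kinds, in 137 of 313 (43.8%) and 31 of 62. With mural-marked cells apart, *Cxcl12* averaged 221 CPM over fibroblast-marked, 367 CPM over endothelial-marked and 201 CPM over mural-marked cells, pooled over hearts. This order rested on heart 3, which gave 32 of the 45 endothelial-marked cells. In heart 3 they were at 466 CPM against 228 CPM in fibroblast-marked cells, whereas in hearts 1 and 4, with 5 and 6 endothelial-marked cells, they were at 92.5 and 118 CPM against 121 and 203 CPM. Pooled in the same way, *Cxcl1* was at 2641, 142 and 239 CPM in fibroblast-marked, endothelial-marked and mural-marked cells and *Ackr3* at 358, 177 and 72.2 CPM. The shares of cells are drawn in the plot of fibroblast subsets.

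**Figure D2:**
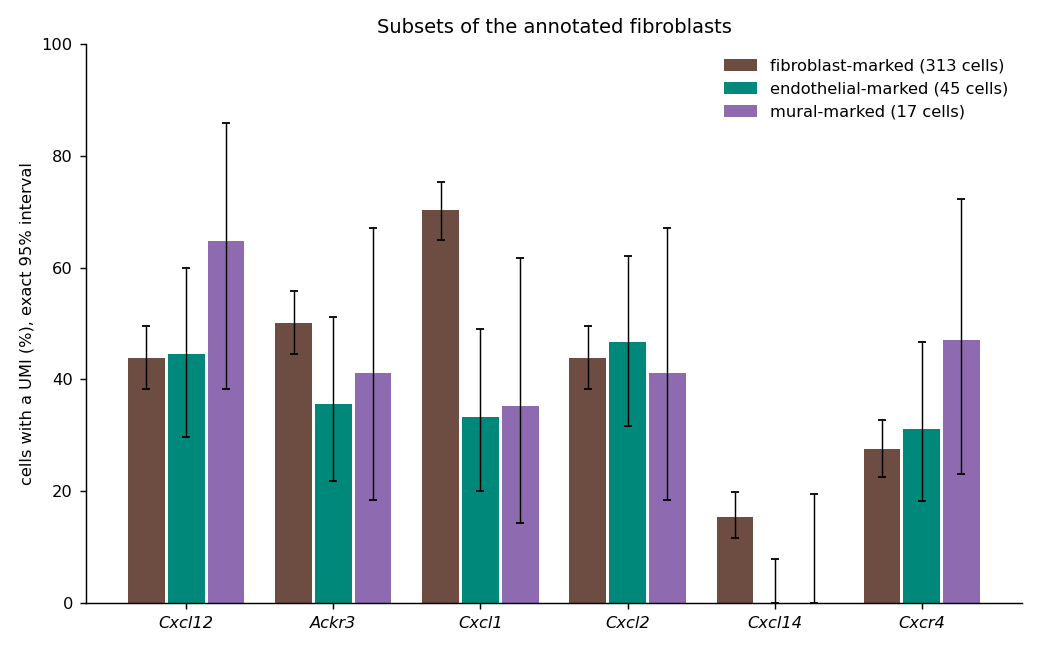
Percent of cells with a UMI of each of 6 genes in 313 fibroblast-marked, 45 endothelial-marked and 17 mural-marked cells of the annotated fibroblasts, with exact 95% intervals as error bars. *Cxcl14* was found in fibroblast-marked cells alone among these, *Cxcl1* in a larger share of them, and *Cxcl12* in all 3 subsets.

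Hearts 1, 3 and 4 had at least 5 cells of both kinds. In them *Cxcl14* was at 43.9, 215 and 187 CPM in fibroblast-marked cells and at 0 in all 3 among endothelial-marked cells. The mean difference of log2(CPM + 10) was 3.74 ± 1.14 (SD, n = 3) for *Cxcl14* and 2.66 ± 2.29 for *Ackr3*, higher in fibroblast-marked cells in 3 of 3 hearts each. For *Cxcl12* it was 0.024 ± 0.70 and for *Cxcr4* -0.56 ± 2.03, each with 2 of 3 hearts higher. The size for *Cxcl14* depends on the 10 CPM added, since its endothelial-marked values were 0. *Ackr3* was at 376 against 0 CPM in heart 1, which had 5 endothelial-marked cells. In hearts 3 and 4 it was at 336 against 159 CPM and 505 against 153 CPM. The exact two-sided sign-flip permutation test gave p = 0.25 for *Cxcl14* and *Ackr3*, the smallest p that 3 hearts allow, so that no difference could pass 0.05. The same exact test gave p = 1 for *Cxcl12* and *Cxcr4*.

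Among fibroblast-marked cells, *Cxcl14* was concentrated. The 48 positive cells held 6.42 UMIs each on average, up to 30 in a cell, and the 10 highest cells held 59.7% of the UMIs. The same share was 38.2% for *Cxcl12* (137 positive cells), 27.9% for *Cxcl1* (220 cells), 25.8% for *Ackr3* (157 cells) and 10.9% for *Dcn* (311 cells). In heart 3, which gave 41 of the 48 cells, *Cxcl14*-positive cells averaged 279 CPM of *Cxcl12*, 211 CPM of *Ackr3* and 170 CPM of *Cxcl2*. Its other fibroblast-marked cells averaged 217, 364 and 386 CPM of the same genes. *Cxcl1* was at 2759 CPM in the positive and 2948 CPM in the other cells. These are cells of a single heart and were compared without a test.

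The graft groups were compared in each type with the heart as the replicate (n = 3 hearts per group), by limma on log2 of mean CPM + 10, with fold changes above 0 where IL-33+ grafts were higher. The 6 genes that passed the filter gave 57 gene-by-type tests. After Benjamini-Hochberg adjustment none of the 57 was called at 0.05 (lowest adjusted p from limma 0.62), where 0.00884% of all 113177 tests did. At an unadjusted p of 0.05 or less there were 10 of 57 (17.5%), against 4.71% of all tests. The hearts of the groups did not overlap in 2 of 57 (3.51%), against 9.82% of all tests. The median log2 fold change was 0.14 over the 57 tests and -0.00056 over all tests. The 57 tests share the same hearts and, for *Cxcr4*, *Cxcl1* and *Cxcl2*, repeat a gene over 14 types.

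**Figure D3:**
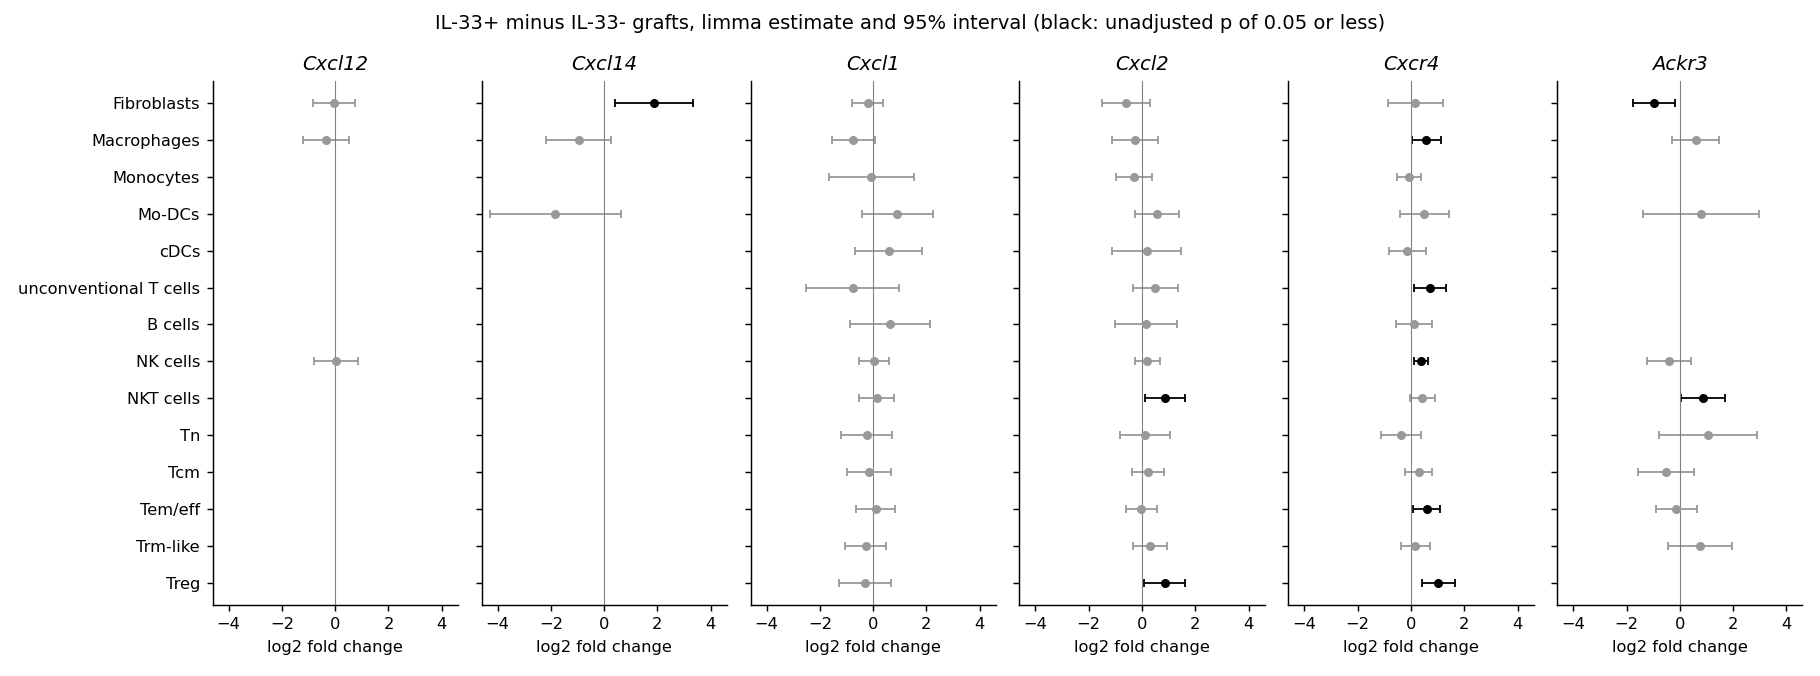
Log2 fold change of 6 genes between IL-33+ and IL-33- grafts in each annotated type, with 95% intervals from limma. Black points had a p of 0.05 or less before adjustment, no point passed after it, and types without a point did not pass the filter on low counts.

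In fibroblasts, *Cxcl12* gave a log2 fold change of -0.050 (standard error 0.39, 95% interval -0.83 to 0.73) and *Cxcl1* of -0.20 (standard error 0.29, interval -0.79 to 0.39). Neither difference exceeded the spread between hearts. *Cxcl14* gave 1.87 (standard error 0.72, interval 0.41 to 3.33, unadjusted p = 0.0138, adjusted p = 0.998 from limma) with group means of 135 ± 84.1 and 49.4 ± 72.5 CPM. With hearts 2 and 5, of under 10 fibroblasts, left out it was 0.66 (unadjusted p = 0.214 from limma), and in fibroblast-marked cells of all hearts it was 2.02 (unadjusted p = 0.00146 from limma). Without cells that held 2 markers of another lineage it was 0.59 (unadjusted p = 0.634 from limma). *Ackr3* gave -0.96 (standard error 0.39, interval -1.75 to -0.18, unadjusted p = 0.0178, adjusted p = 0.998 from limma), and -0.12 (unadjusted p = 0.666 from limma) without hearts 2 and 5. It was -0.95 (unadjusted p = 0.00864 from limma) in fibroblast-marked cells. Without the cells holding 2 markers of another lineage *Ackr3* gave -1.78 (unadjusted p = 0.000711 from limma). That filter removed 136 of the 375 fibroblasts, and whether these droplets held more than a single cell was not tested. *Cxcl14* was singled out by the study from these same hearts, so its place in the list is not independent evidence of a direction.

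**Figure D4:**
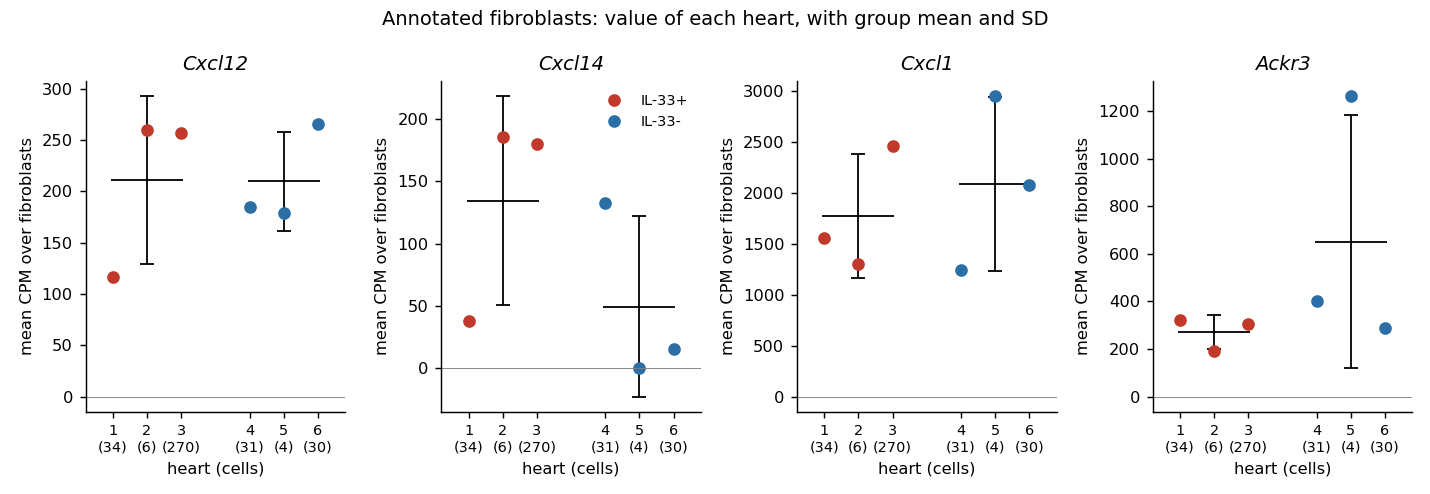
Mean CPM over annotated fibroblasts of 4 genes in each heart (red, IL-33+; blue, IL-33-), with the number of fibroblasts in parentheses, the group mean as a horizontal line and the SD as error bars (n = 3 hearts). The groups overlapped for all 4 genes, and the highest value of *Ackr3*, 1263 CPM, came from the 4 cells of heart 5.

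*Cxcr4* gave the most of the low unadjusted p values, 5 of its 14 types, all higher in IL-33+ grafts. In Tregs, the T cells that restrain immune responses, it was at 425, 643 and 1468 CPM in hearts 1, 2 and 3 and at 268, 338 and 496 CPM in hearts 4, 5 and 6. Heart 3 was the highest and heart 6 lay above heart 1. The log2 fold change was 1.03 (standard error 0.30, unadjusted p = 0.00177, adjusted p = 0.62 from limma). In NK cells it was at 788, 928 and 1119 CPM in hearts 1, 2 and 3 and at 759, 676 and 703 CPM in hearts 4, 5 and 6, and here the groups did not overlap. The log2 fold change in NK cells was 0.39 (standard error 0.13, unadjusted p = 0.00552, adjusted p = 0.65 from limma). The others were unconventional T cells (0.72), Tem/eff cells (0.59) and macrophages (0.58), with overlapping groups in each.

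The *Cxcr4* differences moved with heart 3. Heart 3 had the highest *Cxcr4* of the 6 hearts in 13 of 14 types, fibroblasts being the exception. Of the 4433 genes tested in all 14 types, 2 were highest in heart 3 that often (0.0451%), *Cxcr4* and *Klf2*, a transcription factor of resting leukocytes, which was named after its values were seen. Without heart 3, 1 of 14 types had an unadjusted p of 0.05 or less in place of 5, the fold change was above 0 in 8 types in place of 11, and its median over types was 0.023 in place of 0.34. In Tregs the fold change was then 0.54 (unadjusted p = 0.0820 from limma). It was then farthest from 0 in naive T cells (-0.81), where IL-33+ grafts were lower. Without heart 1, 8 of 14 types had such a p. *Cxcr4* was then called in Tregs (1.43, adjusted p = 0.0414 from limma) and in unconventional T cells (1.17, adjusted p = 0.0166 from limma). *Cxcl2* was called in unconventional T cells as well (1.09, adjusted p = 0.0189 from limma). Unconventional T cells numbered 2 and 27 in hearts 2 and 3 and 18, 7 and 4 in hearts 4, 5 and 6. The calls in this type thus rest on heart 3 and 2 cells of heart 2 on the IL-33+ side. Over all genes the calls rose as well without heart 1, to 108 of 104138 tests (0.104%), and 5.75% of tests had an unadjusted p of 0.05 or less, against 5.69% without heart 3. What sets heart 3 apart was not tested.

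**Figure D5:**
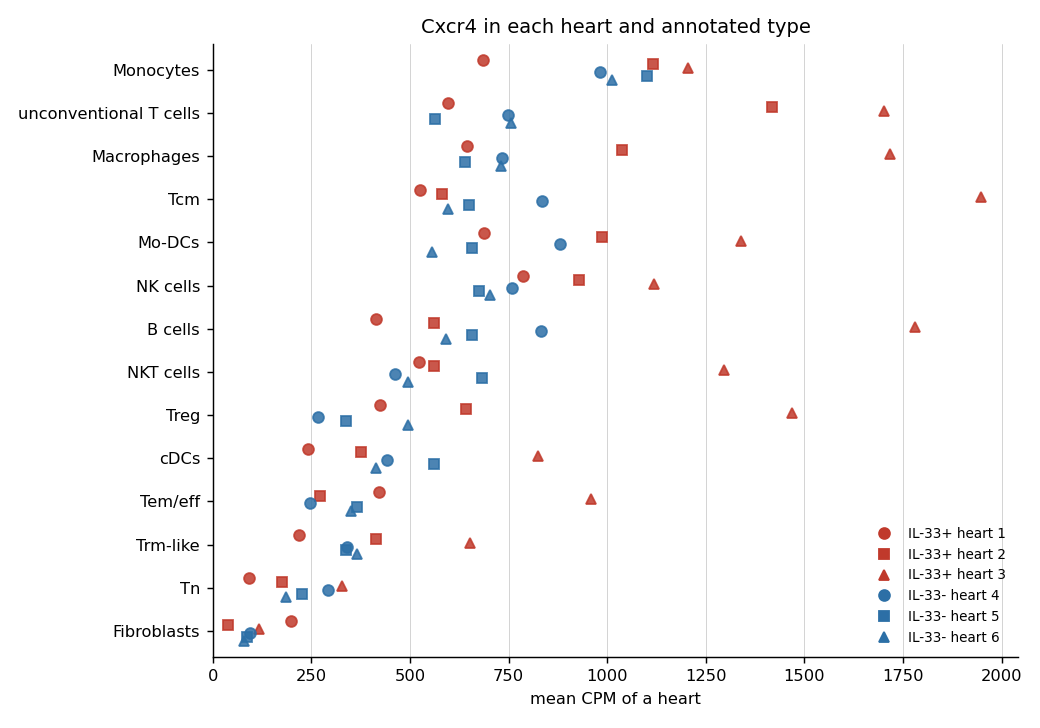
Mean CPM of *Cxcr4* in each heart for 14 annotated types, ordered by the mean over hearts (red, IL-33+; blue, IL-33-; triangles in red are heart 3). Heart 3 was the highest of the 6 hearts in 13 of 14 types, and hearts 1 and 2 lay among the IL-33- hearts in several of them.

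The remaining low unadjusted p values were those of *Cxcl2* in NKT cells (0.88, unadjusted p = 0.0244, adjusted p = 0.924 from limma) and Tregs (0.84, unadjusted p = 0.0303, adjusted p = 0.923 from limma) and of *Ackr3* in NKT cells (0.85, unadjusted p = 0.0445, adjusted p = 0.924 from limma). *Cxcl2* in Tregs was at 374, 125 and 221 CPM in hearts 1, 2 and 3 and at 69.8, 157 and 145 CPM in hearts 4, 5 and 6. Hearts 1, 3 and 5 of the Tregs lay above every heart of the other 7 lymphocyte types, of which the highest was 149 CPM in B cells, whereas the other Treg hearts overlapped with them. *Ackr3* in NKT cells rests on 16 UMIs, and in Trm-like cells, where its groups did not overlap, on 12 UMIs. In Mo-DCs, *Cxcl2* gave 0.57 (standard error 0.42) and *Cxcl14* -1.83 (standard error 1.25), and *Cxcr2* gave -0.83 (standard error 1.17). Neither these nor *Cxcr5* in B cells (0.054, standard error 0.97) exceeded the spread between hearts.

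A list of 29 further genes held 10 other CXC ligands, 6 other receptors and 13 genes that act on CXCR4 or its signal, and 24 of them passed the filter and gave 256 tests. Of 56 tests of ligands, 1 was called, 11 (19.6%) had a p of 0.05 or less before adjustment, 3 higher and 8 lower in IL-33+ grafts, and the groups did not overlap in 8 (14.3%). Of 20 tests of receptors, 4 had such a p and 5 had groups apart, and the median log2 fold change was -0.62. Of 180 tests of the genes around CXCR4, 15 (8.33%) had such a p, 9 higher and 6 lower, the groups did not overlap in 14 (7.78%), and the median was 0.034. The ligands had a median of 0.040. The shares over all genes were 4.71% and 9.82%, as above. The called gene was *Cxcl9*, an interferon-induced ligand of CXCR3, in monocytes, at 178, 0 and 0 CPM in hearts 1, 2 and 3 and at 240.2, 272 and 216 CPM in hearts 4, 5 and 6 (log2 fold change -3.24, adjusted p = 0.0470 from limma). Hearts 2 and 3 gave 5 and 15 monocytes, and 4 of 13 alternative settings kept the call.

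In 16 of the 256 tests, 10 lower and 6 higher in IL-33+ grafts, an unadjusted p of 0.05 or less went with groups that did not overlap. The share of all tests that met both limits was not counted, so whether 16 is many is not known. The genes below are named by these same values. Among ligands, *Cxcl9* was also lower in unconventional T cells (-2.87) and higher in B cells (1.55, from 13 UMIs). *Cxcl16*, the ligand of CXCR6, was lower in cDCs (-1.04) and monocytes (-1.35) and higher in B cells (1.89, from 21 UMIs). Hearts 5 and 6 gave 4 and 15 B cells, and the median log2 fold change over all genes tested in B cells was 0.28. Hearts 2 and 6 gave 2 and 4 unconventional T cells. *Cxcl10*, another ligand of CXCR3, was lower in macrophages (-1.06). The receptor *Cxcr6* was higher in Tem/eff cells (0.63) and lower in fibroblasts (-1.90, from 20 UMIs). Among genes that act on CXCR4 or its ligands, *Mif* was higher in cDCs (0.78), *Dpp4*, a protease that cleaves CXCL12, in Tregs (1.63, from 14 UMIs) and *Arrb1*, a receptor arrestin, in Trm-like cells (1.32, from 19 UMIs). *Cd74*, the MIF receptor and invariant chain, was lower in cDCs (-0.50) and unconventional T cells (-0.59), and *Rgs1*, which dampens G protein signals of chemokine receptors, was lower in NK cells (-0.44) and fibroblasts (-0.88). Apart from *Cxcl9* in monocytes, none of these passed after adjustment.

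The genes whose levels over the 14 types were most like those of each gene were named by Pearson's r of log2(CPM + 10), over 11579 genes, as a description over types that share the same hearts. For *Cxcl12* they were *Ndufa4l2* (0.986), *Col14a1* (0.983) and *Jam3* (0.981), and for *Ackr3* *Steap4* (0.992), *Has2* (0.989) and *S100a16* (0.989). For *Cxcl14* they were *Edn1* (0.970), *Thrb* (0.969) and *Nr2f1* (0.967), and for *Cxcl1* *Gpx3* (0.979), *Colec12* (0.971) and *F3* (0.969). The levels were means over hearts, and that of *Cxcl14* in Mo-DCs (111 CPM) rests mainly on 1 cell of heart 5. The genes named for *Cxcl14* may depend on that cell. *Cxcl2* was most like *Tgm2* (0.965), *Mmp19* (0.963) and *Trem2* (0.959). *Cxcr4* had no close match, with *Cd52* (0.899), *St6galnac4* (0.887) and *H3f3b* (0.886) the nearest.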

How the data were processed

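The authors aligned the pooled 10x Genomics 3' library to mm10 with Cell Ranger, filtered cells in Partek Flow 10.0.23.0425 (both named in the submitters' processing notes), and deposited a matrix of log2(CPM + 1) values with the type and hashtag of each cell. How hashtags were assigned to cells is not given in the sources used here. Whole UMIs were read back from the spacing of the values (99.9% of low values within 0.05 of a whole UMI). The 7 genes and all lists were chosen with earlier results of these data known.

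For each heart and type, CPM was averaged over cells, 10 CPM were added, and log2 values were fitted with limma 3.58.1 (eBayes with trend, R 4.3.3) for genes with at least 10 UMIs and a UMI in at least 3 hearts, each type alone, with Benjamini-Hochberg adjustment over its genes. Single measures used exact permutation tests (scipy 1.17.1). The fits were also run on simulated counts, drawn from a common mean profile with a fixed dispersion. These counts do not model means over few cells, so nothing is concluded from them here. Named were the 7 genes, other CXC genes with an unadjusted p of 0.05 or less and groups apart, *Cxcr2* and *Cxcr5*, and the 3 genes most like each. The authors' limits on counts, genes and mitochondrial reads per cell were set to remove potential doublets as well as poor cells, and no doublet caller was run here. Hearts were labelled as separate donors, and p-values measure the spread between them. Promoters are RefSeq's (GRCm38.p6), and all 7 genes matched by symbol.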

Additional observations from a re-analysis of the deposited data

How the results depend on the processing

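No paired analysis was possible because the hearts are numbered 1 to 6 and share no number between groups. Called tests among the 7 genes stayed at 0 under every alternative except without heart 1, and ranged from 0 to 3 when each heart was left out, while calls over all genes ranged from 4 to 108 (108 without heart 1) and were 10 in the main analysis. Tests at an unadjusted p of 0.05 or less numbered 10 in all, 6 without cells holding 2 markers of another lineage (2182 cells, 49.1%), and 4 to 13 with a heart left out, against 3.42% to 5.75% of all tests under these and the other alternatives. Tests of the 7 genes with groups apart numbered 2 in all (3.51%, against 9.82% of all tests) and 5 (8.93%) with only hearts of at least 10 cells. They numbered 6 (12.5%) without the cells holding 2 markers of another lineage, and 6 to 14 (10.7% to 25.9%) with a heart left out. At these alternatives, in the same order, 20.6%, 9.66% and 18.8% to 21.4% of all tests had groups apart. Fewer hearts overlap less by construction. With a heart left out the log2 fold changes in fibroblasts ranged from 1.00 to 2.92 for *Cxcl14*, -1.39 to -0.34 for *Ackr3*, -0.24 to 0.31 for *Cxcl12* and -0.53 to 0.090 for *Cxcl1*. Those of *Cxcr4* ranged from 0.54 to 1.43 in Tregs and -0.23 to 0.17 in monocytes, and those in Mo-DCs from -0.20 to 1.35 for *Cxcl2* and, without heart 1, 2 or 6, -3.05 to -1.52 for *Cxcl14*, which did not pass the filter without heart 3, 4 or 5. Without the cells holding 2 markers of another lineage *Cxcl14* in fibroblasts was 0.59 and *Ackr3* -1.78. The sign of *Cxcl1* in fibroblasts turned under limma-voom (0.14), with hearts of at least 10 cells (0.28) and in fibroblast-marked cells (0.020). It also turned without the cells holding 2 markers of another lineage (0.24). That of *Cxcl12* turned under limma-voom (0.000115), without the same cells (1.03) and in fibroblast-marked cells (0.066). The difference of *Cxcl12* between the marked subsets was -0.058 when markers with a UMI were counted. Thinning to 1500 UMIs moved the mean share of cells with a UMI to 20.3% for *Cxcl12* and 22.9% for *Ackr3* in fibroblasts and to 71.9% for *Cxcr4* in monocytes, since fewer UMIs find fewer cells. Other causes were not tested. *Cxcl9* in monocytes, with its alternatives added after the data were seen, stayed below 0 (-5.43 to -1.81). Rare types and the 4 to 6 fibroblasts of hearts 2 and 5 set the limit of precision.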
